A study of Homo sapiens with 6 samples.

Results

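The genes described here are 32 genes of glycolysis and of the glucose metabolism next to it, in HEK-293T cells transfected with GFP-tagged RfA1 or with GFP alone. They were taken by symbol from a written list of transporters, enzymes and their regulators, and all 32 were among the 16655 genes of the expression table. After genes with low counts were left out, 31 of them were among the 13002 genes that could be tested. The gene left out was SLC2A3, a glucose transporter, with 4, 9 and 8 counts in GFP cells and 8, 6 and 8 in RfA1 cells. RfA1 is reflectin A1, a protein of squid iridocytes that forms condensates in cells.

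RNA-seq was performed on total RNA in 3 GFP and 3 RfA1 libraries. HEK-293T cells derive from human embryonic kidney and express the large T antigen of SV40. Both groups received a plasmid by lipofection in 10 cm dishes with 10% FBS, the GFP group the empty pEGFP-C1 vector and the RfA1 group the same vector with RfA1 fused to GFP. The cells were harvested 24 h later according to the labels. Transfection was transient, so a dish can hold cells with and without the plasmid, and in bulk RNA fewer expressing cells and less RNA per cell cannot be told apart. Neither the labels nor the methods say that the replicates were separate cultures, so p-values measure the spread between these samples, which may be technical.

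Glycolysis turns glucose into pyruvate in the cytosol and yields ATP and NADH. Its committed step is set by phosphofructokinase, which fructose 2,6-bisphosphate made by the PFKFB enzymes activates. Cultured and transformed cells often pass much of the pyruvate to lactate through lactate dehydrogenase and export it through monocarboxylate transporters. The pentose phosphate pathway branches off at glucose 6-phosphate and supplies NADPH and ribose.

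The libraries held between 10272306 and 11566284 estimated counts, and the common biological coefficient of variation was 8.83%. All 12 markers listed for HEK-293 cells were detected, from VIM at 647 TPM to MYCN at 1.29 TPM in GFP cells, and 0 of them differed at an unadjusted p under 0.05. Of the markers of other cell types, PTPRC of leukocytes stood at 0.010 TPM, ALB of hepatocytes at 0.483 TPM and DCN of fibroblasts at 0.050 TPM. Others were not lower than the least abundant HEK-293 marker by much or were above it, with CD14 at 1.19 TPM, APOA1 at 1.13 TPM and TF at 1.57 TPM. COL1A1, the most abundant of the 14 markers of other types found in the table, stood at 9.57 TPM. Transcript GC content also set the libraries apart, and in this respect RfA1 replicate 2 resembled GFP replicates 2 and 3 more than the other RfA1 libraries. Results are therefore given with and without RfA1 replicate 2 where they rest on it. GFP replicate 1 also differed from its group. Over 12917 genes, Spearman's rho of library deviation with GC content was -0.22 there, against 0.65 and 0.50 in GFP replicates 2 and 3. It was -0.59, 0.49 and -0.66 in RfA1 replicates 1, 2 and 3. Without RfA1 replicate 2, 20.1% of 13129 tested genes passed an adjusted p of 0.05 by edgeR, so values from that setting are read beside this share. That setting also takes out the RfA1 library nearest in GC trend to GFP replicates 2 and 3. A smaller adjusted p there is therefore not stronger evidence for a gene.

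The 32 genes took up 1.94% to 2.05% of all TPM in every library, and their summed level was 20104 ± 569 TPM in GFP cells and 20105 ± 228 TPM in RfA1 cells (SD, n = 3). TPM are the authors' values per transcript length and are used wherever genes are compared with each other. GAPDH, which oxidises glyceraldehyde 3-phosphate, was the most abundant member at 8371 ± 380.4 TPM in GFP cells and ranked 9 in the whole table. Next were ENO1 (enolase 1, 2588 ± 133.0 TPM) and ALDOA (aldolase A, 2496 ± 259.7 TPM), whose levels did not differ beyond their spread. TPI1 (triosephosphate isomerase) stood at 1374 ± 52.1 TPM, PKM (pyruvate kinase) at 1153 ± 9.48 TPM, LDHB at 1058 ± 145.0 TPM and LDHA at 818 ± 59.6 TPM. The lower steps from TPI1 to PKM held 14239 ± 471 TPM in GFP cells, against 3001 ± 283 TPM for the steps from hexokinase to aldolase. Transporters and regulators were far lower, down to SLC16A3 at 1.09 ± 0.265 TPM and SLC2A3 at 0.237 ± 0.085 TPM.

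**Figure D1:**
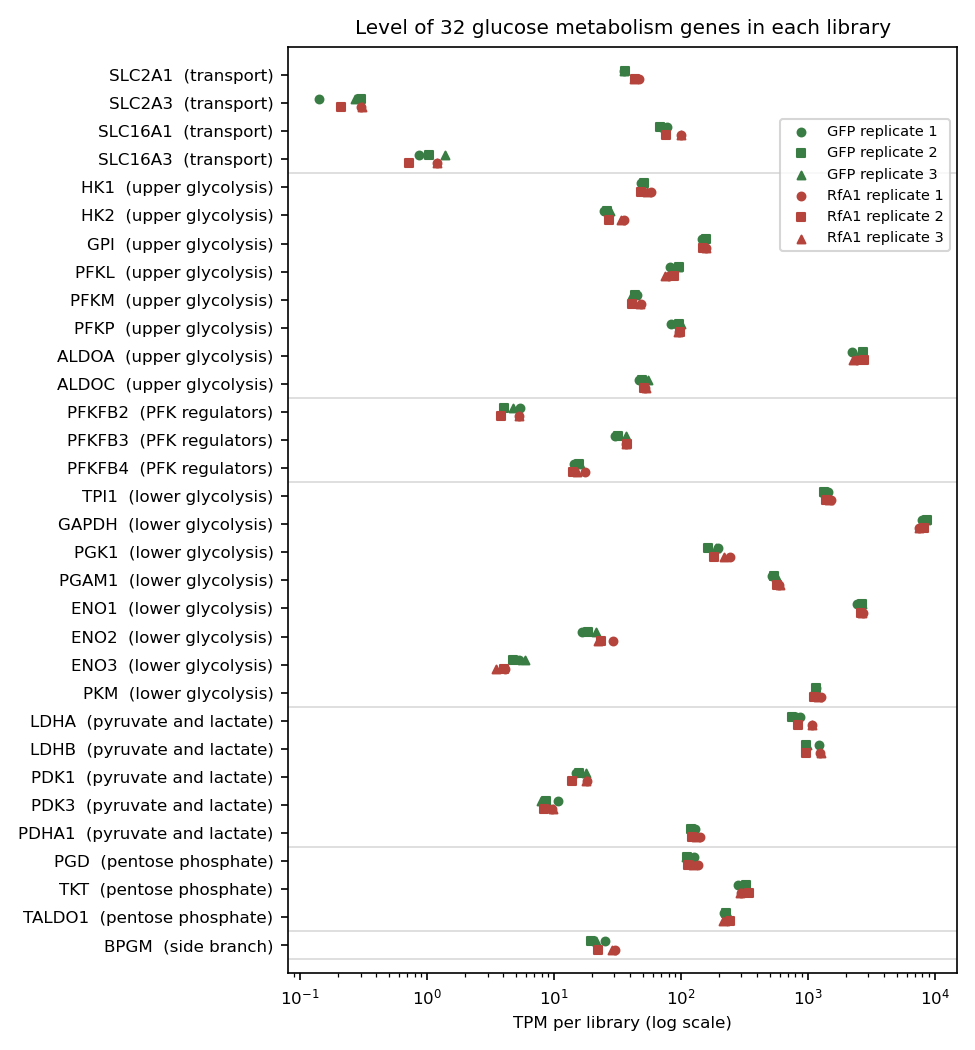
TPM of the 32 genes (rows, by role) in each of the 6 libraries on a log axis. Green symbols are GFP and red symbols are RfA1 libraries, and the symbol shape gives the replicate. The members span from GAPDH at 8371 TPM to SLC2A3 at 0.237 TPM in GFP cells, and for most genes the 6 symbols lie close together.

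The comparison of RfA1 with GFP cells asks whether expression of the squid protein goes with another level of these genes. Fold changes are RfA1 minus GFP on the log2 scale from edgeR's quasi-likelihood test on the counts, with Benjamini-Hochberg adjustment over all tested genes. No member passed an adjusted p of 0.05 (0 of 31), against 10 of 13002 genes (0.0769%). The count was also 0 with DESeq2 and with limma on log2 TPM, where 0.254% and 0.0308% of all tested genes passed. It was 2 when each library was corrected for the GC content of the transcripts, against 1.56% of all tested genes. At an unadjusted p under 0.05, 6 members were higher in RfA1 cells (19.4%), namely SLC2A1, HK2, PFKFB3, ENO2, LDHA and SLC16A1, where 7.30% of all tested genes were. ENO3 was the 1 member that was lower (3.23%), where 6.64% of all tested genes were. The 6 members take part in glucose uptake, the first phosphorylation, activation of phosphofructokinase, the enolase step, lactate formation and lactate export. HK2, ENO2 and LDHA were not the most abundant members of their families, where HK1, ENO1 and LDHB had log2 fold changes of 0.04, -0.01 and 0.07.

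These counts moved with single libraries. The 6 higher members became 1 without RfA1 replicate 1, 2 without RfA1 replicate 3 and 3 without GFP replicate 2. The share of all tested genes on the higher side went from 7.30% to 3.47%, 3.44% and 3.41% there. The 1 lower member became 4 without RfA1 replicate 2, 3 without GFP replicate 1, and 0 without GFP replicate 3 or RfA1 replicate 3. Of all tested genes 18.4%, 8.45%, 3.42% and 3.38% were lower in these settings, in place of 6.64%. Without RfA1 replicate 2, 7 members passed the adjusted p (22.6%), which were SLC2A1, HK2, LDHA, SLC16A1 and BPGM on the higher side and PFKL and GAPDH on the lower side. In the same setting 20.1% of 13129 tested genes passed, so the members' share was close to that of all genes. Without any other single library 0 members passed the adjusted p, where at most 0.0305% of all tested genes did.

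The members as a whole were centred near 0. Their median log2 fold change was 0.02, with 17 positive and 14 negative values, beside a median of -0.0024 over all tested genes. When each library was corrected for the GC content of the transcripts, the median was 0.08 with 26 positive and 5 negative values, beside 0.0049 over all genes. With limma on log2 TPM the split was also 26 to 5 and the median 0.06, beside 0.05 over all genes. Groups without overlap between the 3 GFP and the 3 RfA1 libraries were found for 6 members on the higher side (19.4%), against 9.86% of all tested genes. They were SLC2A1, HK2, PFKFB3, LDHA, SLC16A1 and PDK3. On the lower side ENO3 alone had no overlap (3.23%), against 8.01%.

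**Figure D2:**
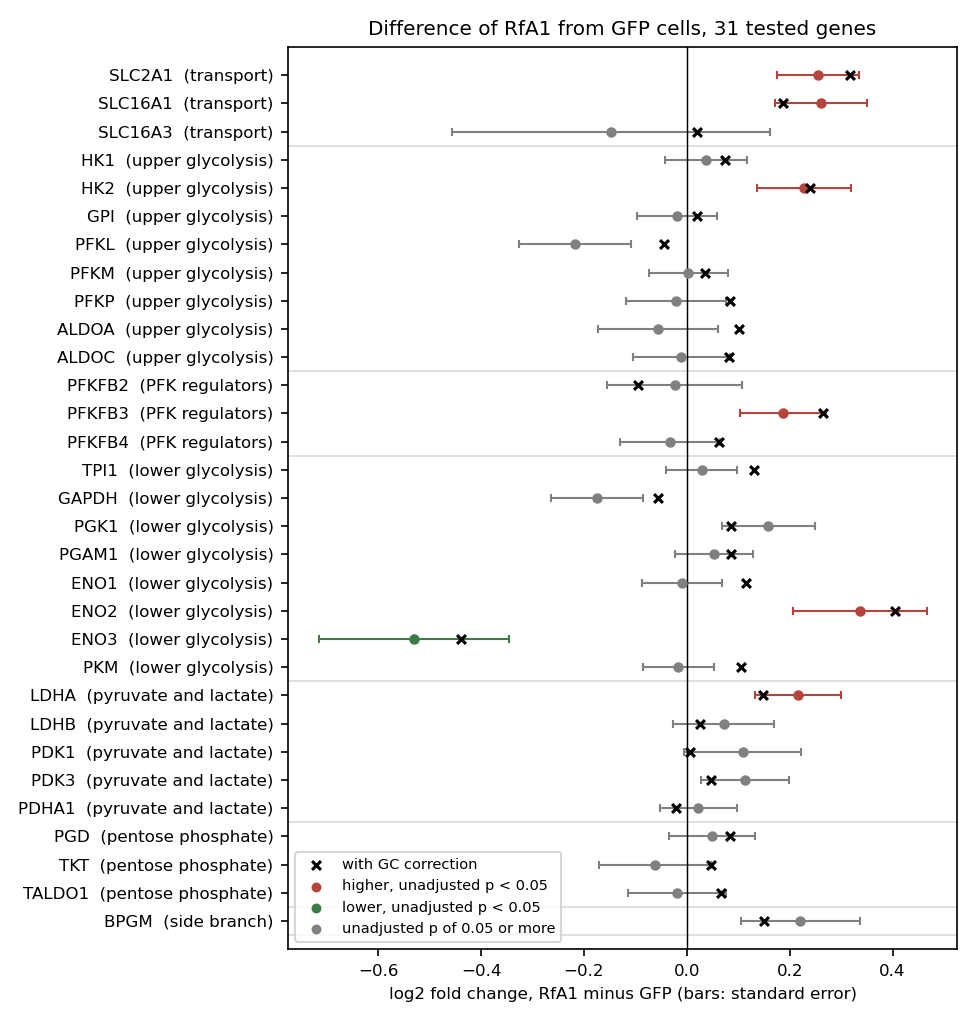
Log2 fold change of RfA1 minus GFP for the 31 tested genes (rows, by role), with the standard error as bars and the GC-corrected value as a black cross. Red marks the 6 genes that were higher and green the 1 gene that was lower at an unadjusted p under 0.05, and the crosses of GAPDH and PFKL lie nearer to 0 than their points.

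Many of these genes are known targets of hypoxia-inducible factors, which bind cores of the letters ACGTG or GCGTG, and of MYC or carbohydrate response factors, which bind E-boxes. RefSeq promoters (GRCh38.p14, 250 bases before to 50 after the start, the 5′-most start of each gene) were matched by symbol for 29 of the 32 members. PFKFB2, SLC16A1 and SLC2A3 were not matched. The windows of SLC2A1, HK2, PFKFB3, ENO2 and LDHA are printed as those of the members that were higher at an unadjusted p under 0.05, and that of GAPDH as the reference. Each is given 5′ to 3′ on the strand of its gene, and capitals mark ACGTG or GCGTG on that strand and CACGT or CACGC, the same letters read on the other strand.
SLC2A1 (chr1:42958819-42959118, minus strand): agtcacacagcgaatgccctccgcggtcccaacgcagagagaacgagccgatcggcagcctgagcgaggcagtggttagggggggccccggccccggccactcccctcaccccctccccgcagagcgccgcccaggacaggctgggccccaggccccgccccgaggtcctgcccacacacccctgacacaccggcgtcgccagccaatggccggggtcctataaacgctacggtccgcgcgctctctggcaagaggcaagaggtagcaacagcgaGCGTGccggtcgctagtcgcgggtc
HK2 (chr2:74833877-74834176, plus strand): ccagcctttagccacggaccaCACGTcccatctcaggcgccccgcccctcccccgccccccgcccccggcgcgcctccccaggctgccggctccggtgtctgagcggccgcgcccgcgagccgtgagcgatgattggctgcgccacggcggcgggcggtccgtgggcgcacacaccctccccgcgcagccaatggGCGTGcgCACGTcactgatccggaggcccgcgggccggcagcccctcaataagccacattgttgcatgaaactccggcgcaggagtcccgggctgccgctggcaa
PFKFB3 (chr10:6144671-6144970, plus strand): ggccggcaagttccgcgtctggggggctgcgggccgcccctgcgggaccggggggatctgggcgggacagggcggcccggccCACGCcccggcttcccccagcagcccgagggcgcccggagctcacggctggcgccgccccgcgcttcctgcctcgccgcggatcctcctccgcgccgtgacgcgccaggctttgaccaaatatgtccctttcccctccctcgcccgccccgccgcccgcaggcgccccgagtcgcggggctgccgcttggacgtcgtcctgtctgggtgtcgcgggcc
ENO2 (chr12:6914330-6914629, plus strand): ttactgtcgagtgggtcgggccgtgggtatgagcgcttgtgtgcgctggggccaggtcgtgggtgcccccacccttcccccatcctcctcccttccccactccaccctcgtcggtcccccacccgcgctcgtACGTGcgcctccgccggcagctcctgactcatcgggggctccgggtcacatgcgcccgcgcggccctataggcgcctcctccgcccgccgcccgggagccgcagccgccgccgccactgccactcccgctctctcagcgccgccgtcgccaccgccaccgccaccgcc
LDHA (chr11:18394313-18394612, plus strand): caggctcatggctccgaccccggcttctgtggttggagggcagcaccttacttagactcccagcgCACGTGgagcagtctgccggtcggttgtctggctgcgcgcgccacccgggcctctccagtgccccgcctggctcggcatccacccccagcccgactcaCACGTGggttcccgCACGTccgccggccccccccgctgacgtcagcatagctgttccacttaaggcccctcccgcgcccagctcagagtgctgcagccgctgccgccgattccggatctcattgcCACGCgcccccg
GAPDH (chr12:6535014-6535313, plus strand): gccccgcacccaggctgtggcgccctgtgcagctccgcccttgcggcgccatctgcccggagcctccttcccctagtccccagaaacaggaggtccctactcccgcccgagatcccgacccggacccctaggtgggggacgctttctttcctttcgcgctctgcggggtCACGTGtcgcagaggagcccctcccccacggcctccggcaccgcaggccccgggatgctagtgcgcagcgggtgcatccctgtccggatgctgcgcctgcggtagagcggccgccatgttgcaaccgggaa

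The core occurred once in the windows of SLC2A1, PFKFB3 and ENO2, and at 3 places in that of HK2. In LDHA there were 6 matches, of which 4 came from 2 copies of CACGTG, since this palindrome holds the core on both strands. GAPDH had 2 matches from 1 such copy, 80 and 81 bases before the start. Over the members, 21 of 29 windows held the core (72.4%), against 48.4% of the windows of 27305 genes. The E-box CACGTG was in 3 of 29 (10.3%, in ALDOC, GAPDH and LDHA), against 7.41%. The GC box GGGCGG, searched on both strands like the others, was in 22 of 29 (75.9%), against 44.5%. The members' windows were also richer in GC, with a median of 70.0% against 58.3% over all genes. A match of letters is a description of the sequence and not a bound site, and the windows were not related to the fold changes.

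SLC2A1 (GLUT1, Gene ID 6513), the basal glucose transporter of most cells, stood at 35.8 TPM in GFP cells. SLC2A3, also a member, was near 0, while SLC2A8 at 20 ± 1.62 TPM and SLC2A6 at 12.1 ± 1.08 TPM (SD, n = 3), which are not members, were also expressed. The CPM of SLC2A1, counts per 1000000 after normalization of the libraries, were 79.2, 84.9 and 81.8 in GFP cells and 100.3, 101.7 and 91.4 in RfA1 cells. Every RfA1 library, replicate 2 included, lay above every GFP library. This was a log2 fold change of 0.25 (SE 0.08), a fold of 1.19, with an adjusted p of 0.256 by edgeR's quasi-likelihood test. SLC2A1 was the member with the smallest p. With GC correction the value was 0.32 with an adjusted p of 0.00872, and without RfA1 replicate 2 it was 0.23 with an adjusted p of 0.0449.

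SLC16A1 (MCT1, Gene ID 6566), which carries lactate and pyruvate with protons across the plasma membrane, showed a difference of like size. The GFP libraries had 194, 181 and 188 CPM and the RfA1 libraries 239, 199 and 237 CPM. The groups did not overlap, but RfA1 replicate 2 was only just above the highest GFP library. Its log2 fold change was 0.26 (SE 0.09), with an adjusted p of 0.278 by edgeR. Without RfA1 replicate 2 the value was 0.34 with an adjusted p of 0.00352, and with GC correction it was 0.19 with an adjusted p of 0.0865. SLC16A3 (MCT4), the lactate exporter of highly glycolytic cells, was nearly silent with 1.08, 1.41 and 1.77 CPM in GFP and 1.46, 0.953 and 1.43 CPM in RfA1 cells. It overlapped between the groups, with 10 to 20 counts per library, a log2 fold change of -0.15 (SE 0.31) and an adjusted p of 0.841.

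Of the hexokinases, which trap glucose as glucose 6-phosphate, HK1 was the main form at 50.1 ± 1.36 TPM and HK2 followed at 26.1 ± 1.45 TPM. HK2 (Gene ID 3099), the inducible form bound to mitochondria, had 95.0, 105 and 108 CPM in GFP cells and 130, 109 and 122 CPM in RfA1 cells. The groups did not overlap but nearly touched, with RfA1 replicate 2 at 108.9 CPM and GFP replicate 3 at 108.2 CPM. The log2 fold change was 0.23 (SE 0.09) with an adjusted p of 0.320 by edgeR, and without RfA1 replicate 2 it was 0.30 with an adjusted p of 0.0126. HK1 had 116 to 129 CPM in GFP and 122 to 132 CPM in RfA1 cells, with a log2 fold change of 0.04 (SE 0.08). GPI, which converts glucose 6-phosphate to fructose 6-phosphate, had 407 to 459 CPM against 416 to 439 CPM, with a log2 fold change of -0.02 (SE 0.08).

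Phosphofructokinase was made up of its platelet form PFKP (93.8 ± 8.26 TPM) and liver form PFKL (91.1 ± 7.65 TPM) at levels that did not differ beyond their spread, with the muscle form PFKM at 43.3 ± 2.08 TPM. PFKL (Gene ID 5211) had 156, 192 and 184 CPM in GFP cells and 147, 174 and 136 CPM in RfA1 cells, and the groups overlapped through RfA1 replicate 2. PFKL gave a log2 fold change of -0.22 (SE 0.11) with an adjusted p of 0.393 by edgeR, and without RfA1 replicate 2 it was -0.32 with an adjusted p of 0.0133. PFKL has the transcript with the highest GC content of the members (63.5%), and with GC correction its value was -0.05 with an adjusted p of 0.745. PFKM and PFKP had log2 fold changes of 0.003 (SE 0.08) and -0.02 (SE 0.10), with PFKP at 144 to 175 CPM in GFP and 152 to 175 CPM in RfA1 cells. The aldolases, which split fructose 1,6-bisphosphate, gave log2 fold changes of -0.06 (SE 0.12) for ALDOA and -0.01 (SE 0.09) for ALDOC. ALDOA ranged from 1967 to 2552 CPM in GFP cells and from 1934 to 2567 CPM in RfA1 cells, where replicate 2 was the highest.

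The PFKFB enzymes make and break fructose 2,6-bisphosphate. PFKFB3 (Gene ID 5209), the form with the highest ratio of kinase to phosphatase activity, was the most abundant at 33.0 ± 3.36 TPM. It had 72.1, 77.3 and 83.8 CPM in GFP cells and 88.4, 90.2 and 87.0 CPM in RfA1 cells, so that the RfA1 libraries lay close together and each exceeded every GFP library. The log2 fold change was 0.19 (SE 0.08) with an adjusted p of 0.349 by edgeR, 0.26 with GC correction (adjusted p of 0.0394) and 0.17 without RfA1 replicate 2 (adjusted p of 0.131). PFKFB4 and PFKFB2 gave log2 fold changes of -0.03 (SE 0.10) and -0.02 (SE 0.13). With GC correction 2 members passed an adjusted p of 0.05, SLC2A1 and PFKFB3 (6.45% of 31), against 1.56% of all tested genes.

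**Figure D3:**
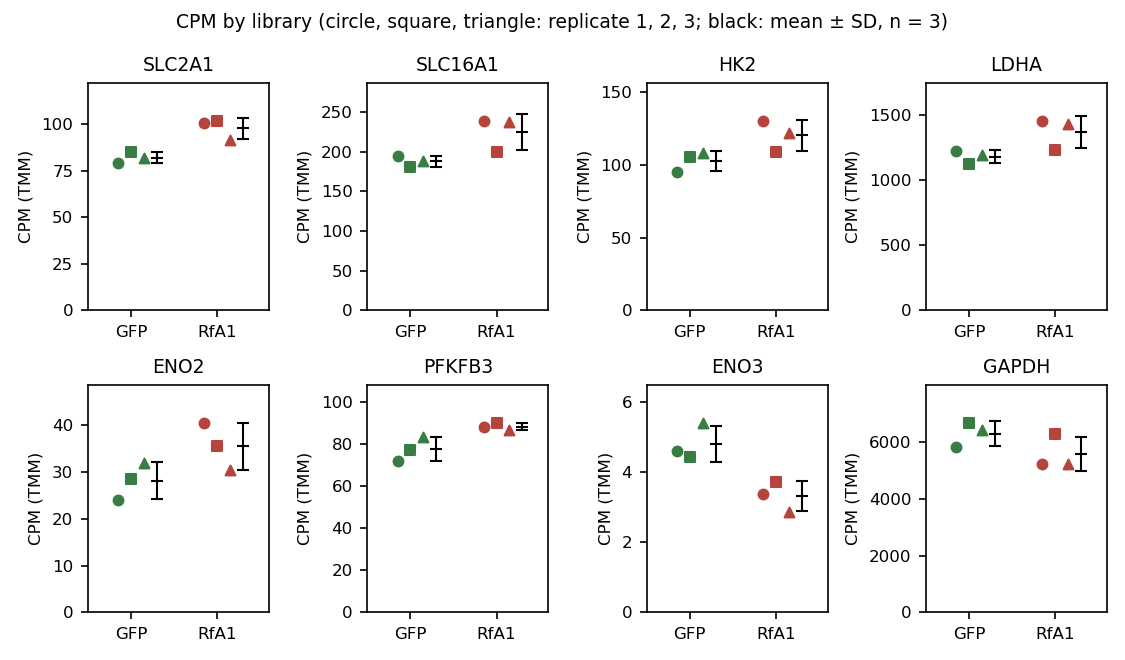
CPM of 8 members in each library (axis from 0), with circles, squares and triangles for replicates 1, 2 and 3, and the mean ± SD of 3 libraries in black. SLC2A1 and PFKFB3 of all 3 RfA1 libraries lie clear of the GFP libraries, while in SLC16A1, HK2, LDHA and GAPDH the square of RfA1 replicate 2 lies nearest to the GFP level.

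GAPDH (Gene ID 2597) was also probed as a protein in the western blots of the study and is a common reference gene. Its CPM were 5813, 6665 and 6407 in GFP cells and 5234, 6288 and 5216 in RfA1 cells. RfA1 replicates 1 and 3 lay below all GFP libraries and RfA1 replicate 2 within them. The log2 fold change was -0.17 (SE 0.09), a fold of 0.886, with an adjusted p of 0.399 by edgeR. Without RfA1 replicate 2 it was -0.27 with an adjusted p of 0.0158, and with GC correction it was -0.06 with an adjusted p of 0.668. In all settings tried GAPDH stayed on the lower side in RfA1 cells, by values between these last 2.

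Among 20 genes in common use as references, GAPDH ranked 14 for its coefficient of variation over the 6 libraries, 10.4%, where rank 1 is the steadiest. RPLP0 of the large ribosomal subunit varied by 1.14%, TBP of the basal transcription machinery by 2.65% and TUBB by 3.85%. POLR2A, the largest subunit of RNA polymerase II, was the most variable at 18.5%, with GFP replicate 1 at 714 CPM and the other libraries between 454 and 547 CPM. At an unadjusted p under 0.05 HPRT1, YWHAZ and TFRC were higher and GUSB and POLR2A lower. At that threshold 7.30% of all tested genes were higher and 6.64% lower. Among the 20 reference genes 0 passed the adjusted p. Without RfA1 replicate 2, GAPDH was 1 of 7 reference genes that passed the adjusted p, and 20.1% of 13129 tested genes passed there. PGK1, both a reference and a member, makes ATP from 1,3-bisphosphoglycerate and had 559 to 643 CPM in GFP and 626 to 753 CPM in RfA1 cells, with a log2 fold change of 0.16 (SE 0.09). For PGK1 this was 0.08 without RfA1 replicate 1, 0.10 without GFP replicate 2 and 0.09 with GC correction.

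When every gene was expressed relative to GAPDH of its own library, every fold change shifted upward by the size of the GAPDH difference, and GAPDH itself was at 0 by construction. There were then 9 of 31 members without overlap on the higher side, against 13.6% of all tested genes, and 1 on the lower side (3.23%), against 2.23%. The 9 were SLC2A1, HK2, PFKP, PFKFB3, PGAM1, ENO1, ENO2, TKT and TALDO1, and the 1 was ENO3. SLC2A1 relative to GAPDH differed by 0.43 on the log2 scale and HK2 by 0.40. For PFKP, ENO1, TKT and TALDO1 among the 9, the sign differed from that on the CPM scale, which follows from the common shift (for TKT, 0.11 relative to GAPDH and -0.06 on the CPM scale).

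The main forms of the remaining steps of lower glycolysis had small log2 fold changes. ENO1 had 2657, 3057 and 2977 CPM in GFP cells and 2861, 3023 and 2753 CPM in RfA1 cells, with a log2 fold change of -0.01 (SE 0.08). PKM gave -0.02 (SE 0.07), TPI1 gave 0.03 (SE 0.07), and PGAM1, the phosphoglycerate mutase, gave 0.05 (SE 0.08). The minor enolases had values of opposite sign. ENO2 (Gene ID 2026), the neuronal form, had 24.0, 28.6 and 31.9 CPM in GFP cells and 40.5, 35.6 and 30.5 CPM in RfA1 cells, overlapping through RfA1 replicate 3. Its log2 fold change was 0.34 (SE 0.13) with an adjusted p of 0.313 by edgeR and stood at 0.40 with GC correction. ENO3 (Gene ID 2027), the muscle form, had 4.59, 4.41 and 5.39 CPM in GFP cells and 3.37, 3.72 and 2.86 CPM in RfA1 cells. These groups did not overlap, but they rest on 50 to 61 counts against 30 to 39. The log2 fold change of ENO3 was -0.53 (SE 0.18) with an adjusted p of 0.278 by edgeR, the largest size among the members, and -0.44 with GC correction.

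At the fate of pyruvate all 5 members had a positive log2 fold change, as did 49.5% of all tested genes, and with GC correction 4 of the 5 did. All 5 transcripts have less than 50% GC. LDHA (Gene ID 3939), the lactate dehydrogenase subunit that prevails in glycolytic tissues, had 1222, 1123 and 1195 CPM in GFP cells and 1454, 1228 and 1429 CPM in RfA1 cells. The groups did not overlap, with RfA1 replicate 2 barely above GFP replicate 1. For LDHA the log2 fold change was 0.22 (SE 0.08) with an adjusted p of 0.313 by edgeR, 0.29 without RfA1 replicate 2 (adjusted p of 0.00767) and 0.15 with GC correction (adjusted p of 0.181). LDHB had 914, 761 and 747 CPM in GFP cells and 890.4, 757 and 898 CPM in RfA1 cells, with a log2 fold change of 0.07 (SE 0.10). For the kinases that switch off pyruvate dehydrogenase, PDK1 gave 0.11 (SE 0.11) and PDK3 0.11 (SE 0.09), and PDHA1, a catalytic subunit of that complex, gave 0.02 (SE 0.08). With GC correction the values were 0.03 for LDHB, 0.0067 for PDK1, 0.05 for PDK3 and -0.02 for PDHA1. PDK3 did not overlap, with 37.4 to 38.9 CPM in GFP and 39.7 to 43.1 CPM in RfA1 cells, and its adjusted p was 0.540 by edgeR.

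In the pentose phosphate pathway PGD, which yields NADPH, had a log2 fold change of 0.05 (SE 0.08). The transketolase TKT was the most abundant of its 3 members at 312 ± 26.9 TPM and had 420.4, 514 and 497 CPM in GFP cells and 426, 531 and 415 CPM in RfA1 cells. These groups overlapped throughout, with a log2 fold change of -0.06 (SE 0.11) and an adjusted p of 0.808 by edgeR. TALDO1, the transaldolase at 226 ± 7.67 TPM, gave -0.02 (SE 0.10). BPGM, which makes 2,3-bisphosphoglycerate from a glycolytic intermediate, had 26.3, 21.9 and 23.2 CPM in GFP cells and 30.4, 24.2 and 28.5 CPM in RfA1 cells. The groups overlapped through RfA1 replicate 2, and the log2 fold change was 0.22 (SE 0.12). It was 0.31 with an adjusted p of 0.0469 by edgeR without that library, and 0.15 with an adjusted p of 0.410 with GC correction.

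The isozyme make-up was described as the share of each form in the TPM of the members of its family within a library, over 9 families and 15 shares. Forms that are not members were left out of these sums. Among the members, single forms prevailed in aldolase and enolase, with ALDOA at 98.0% and ENO1 at 99.1% in GFP cells, and SLC16A1 held 98.5% beside SLC16A3. The share of LDHA was 41.6%, 43.8% and 45.8% in GFP cells and 46.4%, 46.1% and 45.9% in RfA1 cells, a difference of 2.40 points. The groups were only just apart, and the GFP libraries were the more spread. HK2 held 33.8%, 33.8% and 35.3% in GFP cells and 38.1%, 35.6% and 38.04% in RfA1 cells, a difference of 2.99 points. PFKL held 39.9% ± 0.907 in GFP and 36.4% ± 1.95 in RfA1 cells, and PFKP 41.1% ± 1.22 and 43.1% ± 0.299 (SD, n = 3). In enolase ENO2 held 0.721% ± 0.065 and 0.916% ± 0.118, and ENO3 0.205% ± 0.025 and 0.143% ± 0.010.

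These 6 shares did not overlap between the groups, and the 9 others did. On the CPM scale, a different measure, 9.86% of all tested genes had no overlap on the higher side and 8.01% on the lower side. Shares of one family depend on each other, so PFKL with PFKP and ENO2 with ENO3 are not separate observations. By a two-sided exact permutation test each of the 6 had a p of 0.1, the smallest that 3 libraries against 3 can give, and 0.25 after Benjamini-Hochberg adjustment over the 15 shares. With libraries this few, that test cannot reach 0.05 for a share. PFKFB3 held 62.0% ± 1.89 of the PFKFB members in GFP and 64.5% ± 2.89 in RfA1 cells, and PDK1 63.9% ± 5.71 and 64.1% ± 1.57 beside PDK3 (SD, n = 3). The most abundant of these kinases was PDK2, which is not a member, at 48.8 ± 4.30 TPM in GFP cells against 16.2 TPM for PDK1 and 9.14 TPM for PDK3.

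**Figure D4:**
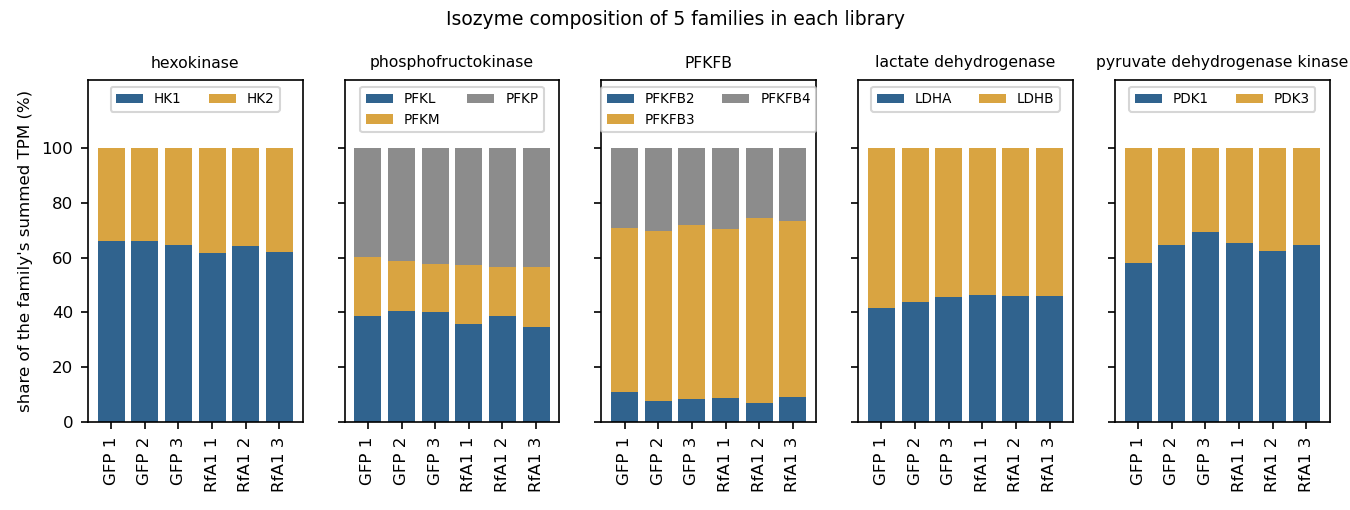
Share of each isozyme in the summed TPM of the members of its family (percent, stacked bars that add to 100) in the 6 libraries, for 5 families. The HK2 part is taller in all RfA1 libraries (37.3% on average) than in the GFP libraries (34.3%), and the LDHA part varies from 41.6% to 45.8% in GFP cells and from 45.9% to 46.4% in RfA1 cells.

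The fold changes of the members followed the GC content of their transcripts. Across the 31 tested members, which are not independent replicates and share the same 6 libraries, Spearman's rho between log2 fold change and GC content was -0.67, and over 12917 genes it was -0.55. Of the 9 members with less than 50% GC, among them LDHA, SLC16A1, PGK1 and BPGM, 8 had a positive fold change, and of the 22 members with 50% or more 9 did. With GC correction the counts were 7 of 9 and 19 of 22. SLC2A1 (54.8% GC), PFKFB3 (55.7%) and ENO2 (55.0%) belonged to the GC-richer members and had larger fold changes after the correction. The library deviations of the members correlated with GC content in opposite directions, with a rho of 0.83 in GFP replicate 2, 0.66 in GFP replicate 3 and 0.52 in RfA1 replicate 2. The rho was -0.35 in GFP replicate 1, -0.70 in RfA1 replicate 1 and -0.76 in RfA1 replicate 3. The part of the libraries' GC trend in the differences of LDHA, SLC16A1 and GAPDH was not tested beyond the corrected values given with each gene.

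**Figure D5:**
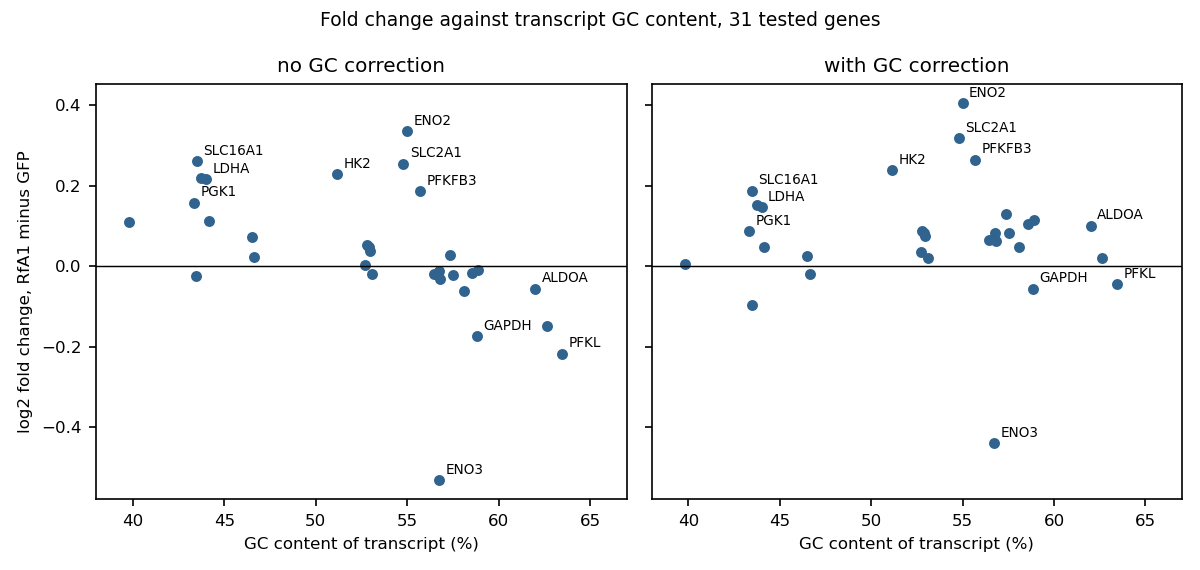
Log2 fold change of RfA1 minus GFP (vertical axis) against the GC content of the transcript (horizontal axis, percent) for the 31 tested genes, without GC correction on the left and with it on the right. On the left the points fall from SLC16A1 at 43.5% GC to PFKL at 63.5%, and on the right 26 of 31 lie above 0.

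Around the members stand further genes of the same pathways, such as other transporters and isozymes, the pyruvate dehydrogenase complex and the mitochondrial pyruvate carrier. Of 66 such genes 42 could be tested, and 0 passed the adjusted p by edgeR. At an unadjusted p under 0.05, 5 were higher (11.9%, SLC2A12, ADPGK, EMB, MPC1 and RPE) and 2 were lower (4.76%, PC among them). Of all tested genes 7.30% were higher and 6.64% lower. The median log2 fold change of these pathway genes was 0.04. The count of 7 became 14 without RfA1 replicate 2, where 34.9% of all tested genes were past this threshold in place of 13.9%. It was 11 without GFP replicate 1, 3 without GFP replicate 2 or 3, 4 without RfA1 replicate 1, and 4 with DESeq2. The share of all tested genes was 17.2%, 6.55%, 7.45%, 6.70% and 9.98% in these 5 settings, in this order. ADPGK, a glucokinase that uses ADP, had 66.2, 58.8 and 61.2 CPM in GFP cells and 76.1, 73.3 and 77.2 CPM in RfA1 cells, without overlap. Its log2 fold change was 0.28 (SE 0.08) with an adjusted p of 0.247 by edgeR, and 0.29 with an adjusted p of 0.0319 with GC correction. RPE, the ribulose phosphate epimerase of the pentose phosphate pathway, gave a log2 fold change of 0.29 (SE 0.10). HK3, PKLR and FBP1 of liver and other tissues had 0.090 TPM or less in GFP cells.

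Of 27 regulators of these genes, 0 passed the adjusted p by edgeR. At an unadjusted p under 0.05, 3 were higher (EGLN3, TXNIP and ARRDC4) and 3 lower (EGLN2, MLXIPL and RPTOR), 11.1% each, against 7.30% and 6.64% of all tested genes. HIF1A, the oxygen-regulated subunit of the hypoxia-inducible factor, had 73.7 and 80.4 CPM in GFP and RfA1 cells on average and a log2 fold change of 0.13 (SE 0.09), or 0.0017 with GC correction. MYC stood at 680.0 and 722 CPM with 0.09 (SE 0.10), or 0.14 with GC correction. MLXIPL, the glucose-sensing factor ChREBP, had 43.3, 49.4 and 50.5 CPM in GFP cells and 35.7, 40.0 and 35.7 CPM in RfA1 cells, with a log2 fold change of -0.36 (SE 0.10) and an adjusted p of 0.221 by edgeR. With GC correction MLXIPL was at -0.19. TXNIP, which ChREBP and its relatives induce and which restrains glucose uptake, had 23.4, 20.1 and 24.5 CPM against 33.5, 25.3 and 32.8 CPM, with a log2 fold change of 0.43 (SE 0.13). EGLN3, an oxygen sensor that is itself induced in hypoxia, had 15.02, 14.7 and 17.6 CPM against 19.8, 19.8 and 19.2 CPM, with 0.32 (SE 0.11). The groups of MLXIPL, TXNIP and EGLN3 did not overlap. Without RfA1 replicate 2 the adjusted p was 0.00710 for MLXIPL and 0.00288 for TXNIP by edgeR, in the setting where 20.1% of all tested genes passed.

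Hypoxia-inducible targets outside the members were listed as well, 39 genes of which 37 could be tested. At an unadjusted p under 0.05, 8 were higher (21.6%, CA12, ADM, DDIT4, MXI1, ERO1A, INSIG2, INSIG1 and GBE1) against 7.30% of all tested genes, 0 were lower, and 0 passed the adjusted p by edgeR. The median log2 fold change was 0.12 with 28 of 37 positive, 0.09 with 32 of 37 positive after GC correction, and 0.07 without RfA1 replicate 1. The count of 8 became 18 without RfA1 replicate 2, where the share over all tested genes also went from 13.9% to 34.9%. INSIG2, which holds back sterol synthesis, had 9.54, 8.47 and 8.92 CPM in GFP cells and 12.9, 11.9 and 14.7 CPM in RfA1 cells, with a log2 fold change of 0.55 (SE 0.13) and an adjusted p of 0.179 by edgeR. ERO1A, an oxidase of protein folding in the endoplasmic reticulum, gave 0.32 (SE 0.09) and INSIG1 gave 0.27 (SE 0.08). CA9, which could not be tested, was at 0.093 TPM in GFP cells, and VEGFA had a log2 fold change of 0.17 (SE 0.09). This list, like the others, was drawn up with earlier results of these data known. Its share is therefore a description and no independent support, and a difference in hypoxia signalling was not tested.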

How the data were processed

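RNA-seq libraries of HEK-293T cells with GFP (n = 3) or GFP-tagged RfA1 (n = 3) were grouped by the sample labels. The table that the authors deposited covers 16655 genes by Gene ID and symbol and holds estimated counts without normalization (7.39% to 8.02% not whole), TPM and FPKM for each library. TPM and FPKM were scaled by the authors to gene length and depth, and the deposited averages over replicates were not used. The submitters' processing notes name HISAT and GRCh38.p13. The counting tool, the annotation and the RNA-seq test are not given in the sources used here. There were 0 columns of library values left unmapped.

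Estimated counts were rounded, genes were kept by filterByExpr (minimum count 10, minimum total count 15) and normalized by TMM, and groups were compared with the robust quasi-likelihood test of edgeR 4.0.16 in R 4.3.3, two-sided, with Benjamini-Hochberg adjustment over all tested genes at 0.05. Counting error enters the test through the counts, and CPM are counts per normalized library size of 1000000. Shares of isozymes were taken from TPM and compared with exact permutation tests. For the GC correction, counts of each library were modelled by GC content (spline, 5 degrees of freedom) and the fit was used as an offset. GC content came from 1 GENCODE transcript per gene, found for 98.3% of the table. Alternatives were DESeq2 1.42.0, limma 3.58.1 on log2(TPM + 1), upper-quartile and total-count scaling, no filter, 10 counts in every library, the replicate number as a block, the FPKM for shares, and each library left out. Scripts were tested on simulated data, and figures were drawn with matplotlib 3.10.9.

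The members, the other gene lists and the tests were chosen with earlier results of these data known. Full values are given for members past the adjusted p, the 5 members with the smallest p in each direction, GAPDH and the main isozyme of each family. In the other lists the genes past the adjusted p, or else the 3 with the smallest p, are named with values, and the further genes named there (CA9, VEGFA, HIF1A, MYC, HK3, PKLR, FBP1, the reference and marker genes, and those behind a count) were added after their values were seen. A few genes of these lists are counted but not reported here by name. Reads shared between close copies leave genes uncertain: 8 of the 32 members had counts that were not whole in some library, GPI and ALDOA in all 6, and how reads from the processed pseudogenes of GAPDH and other members were assigned is not given in the sources used here.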

Additional observations from a re-analysis of the deposited data

How the results depend on the processing

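The replicate numbers did not pair the libraries, since same-numbered GFP and RfA1 libraries had correlations of their deviations of 0.17, 0.32 and -0.14, and GFP replicate 1 correlated best with RfA1 replicate 3 (0.35). With the replicate block 2 members passed the adjusted p on the higher side, SLC2A1 and SLC16A1 (adjusted p of 0.0488 and 0.0420 by edgeR). On that side 2.38% of all tested genes passed. At an unadjusted p under 0.05, 3 members were lower, against 12.2% of all tested genes. With the block, 11 other pathway genes and 14 hypoxia targets were at an unadjusted p under 0.05, against 7 and 8 without it, while the share of all tested genes went from 13.9% to 23.6%. The sign-flip test within same-numbered libraries gave 0.25 at the least. GC correction gave 2 members past the adjusted p on the higher side, against 1.12% of all tested genes. GC correction with the block gave 5 (SLC2A1, PFKFB3, HK2, ENO2 and SLC16A1, with adjusted p of 0.00139, 0.0100, 0.0287, 0.0350 and 0.0498 by edgeR), against 2.35% of all tested genes, while hypoxia targets at an unadjusted p numbered 14. With GC correction and the block 18.2% of all tested genes were past that threshold. Other pathway genes at an unadjusted p numbered 4 with GC correction and 4 with DESeq2, against 16.1% and 9.98% of all tested genes.

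Leaving out each library in turn, members past the adjusted p numbered 0 to 5 on the higher and 0 to 2 on the lower side, and at an unadjusted p 1 to 9 and 0 to 4. Other pathway genes then ranged from 3 to 14 and hypoxia targets from 6 to 18. Of all tested genes 3.41% to 16.4% were higher and 3.14% to 18.4% lower at an unadjusted p, and 6.55% to 34.9% in either direction. Past the adjusted p, up to 8.56% of all tested genes were higher and up to 11.5% lower, both without RfA1 replicate 2. The GAPDH log2 fold change ranged from -0.27 (without RfA1 replicate 2) to -0.13. The median of the members stayed above 0 in every setting, from 0.0002 without RfA1 replicate 1 to 0.083 with GC correction and the block. Over all tested genes it was -0.0066 and 0.0047 in these settings. With limma on log2(TPM + 1) it was 0.045 over all tested genes and 0.055 for the members, and with total library size 0.014 and 0.039.

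Members near 0 changed sign. With GC correction, and in brackets with the block added, the log2 fold changes were 0.019 (0.020) for GPI, 0.084 (0.085) for PFKP, 0.063 (0.060) for PFKFB4, 0.10 (0.10) for ALDOA, 0.083 (0.085) for ALDOC, 0.12 (0.12) for ENO1, 0.10 (0.10) for PKM, 0.021 (0.034) for SLC16A3, -0.020 (-0.021) for PDHA1, 0.047 (0.047) for TKT and 0.066 (0.065) for TALDO1. On log2(TPM + 1) they were 0.043 for GPI, 0.045 for PFKP, 0.016 for PFKFB2, 0.022 for PFKFB4, 0.0020 for ALDOA, 0.055 for ALDOC, 0.053 for ENO1, 0.044 for PKM and 0.035 for TALDO1. With total library size they were 0.0055 for ALDOC, 0.0073 for ENO1 and 0.00064 for PKM. PFKM was at -0.00081 with DESeq2, -0.0023 with upper-quartile scaling and -0.0016 with 10 counts in every library.

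Without single libraries the log2 fold change ranged from -0.0033 to 0.072 for HK1, -0.058 to 0.031 for GPI, -0.031 to 0.028 for PFKM, -0.11 to 0.028 for PFKP, -0.10 to 0.089 for PFKFB2, -0.098 to 0.0047 for PFKFB4, -0.18 to 0.033 for ALDOA, -0.082 to 0.059 for ALDOC, -0.069 to 0.032 for ENO1, -0.040 to 0.011 for PKM, -0.31 to 0.039 for SLC16A3, -0.0066 to 0.094 for PGD, -0.18 to 0.0026 for TKT and -0.11 to 0.052 for TALDO1. The isozyme shares that changed sign ranged from -0.177 to 0.039 points for SLC2A3, -1.25 to 0.329 for PFKFB2, -0.028 to 0.192 for ALDOC and -2.85 to 2.84 for PDK3. The 6 shares without overlap must keep their direction when a library is left out, so this is not a separate check of them. Shares from FPKM equal those from TPM by construction, and no share was computed with GC correction.

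Depth limits the least abundant members, ENO3 with 30 to 61 counts, SLC16A3 with 10 to 20 and SLC2A3 with 4 to 9. The cause of these changes was not tested.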
